A study of Mus musculus with 10 samples.

Results

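The 37 genes described here are those encoded on the mitochondrial genome of the mouse, taken as every gene record whose symbol starts with mt-, and they were 37 of 54347 gene records. By the biotype given in the table they were 13 protein-coding genes, 2 rRNA genes and 22 tRNA genes, all placed on the circular chromosome MT of GRCm38. Poly A RNA was measured in interscapular brown adipose tissue (iBAT), a fat depot of the upper back whose cells burn fuel to warm the animal. The tissue came from 10 mice on the C57BL/6N background, 5 with a CRISPR/Cas9 deletion that removes the first exon of Gm15551, a lncRNA gene (ΔGm15551 with replicate numbers 1, 2, 4, 5 and 7) and 5 wild type litter mates (replicate numbers 2, 3, 5, 6 and 7). All mice were 12 weeks old and had been kept singly at 4 °C for 24 h. The deletion is carried by the whole animal and not by fat cells alone, in a line backcrossed to wild type animals, and no group kept at a warmer temperature was used here, so that no value below is a response to cold.

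The mitochondrial genome is transcribed from both strands into long precursors, from which the tRNAs are cut out and the mRNAs and rRNAs between them are set free. Its protein-coding genes all specify membrane subunits of the respiratory chain and the ATP synthase, namely of complexes I, III, IV and V, and every other subunit is made from nuclear genes. Brown adipocytes are packed with mitochondria, and their inner membrane holds Ucp1, which lets protons flow back without making ATP, so that the chain releases heat.

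Each library held between 9680976 and 15771170 counts. Gm15551 had 0 counts in all 5 ΔGm15551 mice, and 1, 2, 6, 7 and 0 counts in wild type replicates 2, 3, 5, 6 and 7, so that its count did not set wild type replicate 7 apart from the ΔGm15551 mice. The tissue held its defining markers: all 10 brown adipocyte genes of the list were tested, and Ucp1 ranged from 5747 to 10990.0 CPM. CPM stands for counts per 1000000 counts of a library scaled by the TMM method. Skeletal muscle genes (10 of 10 tested) summed to 0.302% of the counts in wild type replicate 7, to 0.198% in ΔGm15551 replicate 4 and to 0.0840% in ΔGm15551 replicate 1, against 0.0282% in wild type replicate 5 and at most 0.00798% in the other mice. Red blood cell genes (5 of 5 tested) summed to 0.256% in wild type replicate 7 and 0.178% in ΔGm15551 replicate 1, and to between 0.0646% and 0.149% in the others. These libraries are named again beside the results they touch. In a piece of tissue, fewer mitochondria-rich cells and less mitochondrial RNA per cell cannot be told apart.

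Between 19.8% and 28.4% of all counts in cold-exposed iBAT came from the mitochondrial genome, and this share did not separate the genotypes. The 37 genes took 28.4, 21, 21.8, 19.8 and 26.1% of the counts in ΔGm15551 replicates 1, 2, 4, 5 and 7. They took 22.1, 24.4, 22.5, 23 and 27.9% in wild type replicates 2, 3, 5, 6 and 7. The mean of the ΔGm15551 mice was 23.4 ± 3.66% and that of the wild type mice 24 ± 2.36% (SD, n = 5 each), and the lowest and the highest share of the 10 were both found in ΔGm15551 mice. A share has a counting error of at most 0.0283 percentage points (to either side, 95% Wilson interval), far below the spread between mice. Such an interval covers only the error of counting, as reads were not tagged by molecule.

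The mRNAs made up most of this share. The 13 protein-coding genes held 22.5, 18.4, 18.3, 17.1 and 21.8% of the counts in the ΔGm15551 mice and 18.7, 20.2, 19.5, 20 and 21.4% in the wild type mice, in the same order of replicates, with means of 19.6 ± 2.37% and 20 ± 0.979%. The 2 rRNA genes held 5.88, 2.63, 3.5, 2.69 and 4.35% and 3.4, 4.07, 2.97, 2.96 and 6.53%, with means of 3.81 ± 1.35% and 3.99 ± 1.49%. ΔGm15551 replicate 1 and wild type replicate 7 had the highest rRNA shares, and the groups overlapped in every class. The 22 tRNA genes together held only 0.0197% to 0.0396% of the counts. Poly A RNA was sequenced, and mature tRNAs are short and carry no poly(A) tail, so that this share is not a measure of the tRNA pool.

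**Figure D1:**
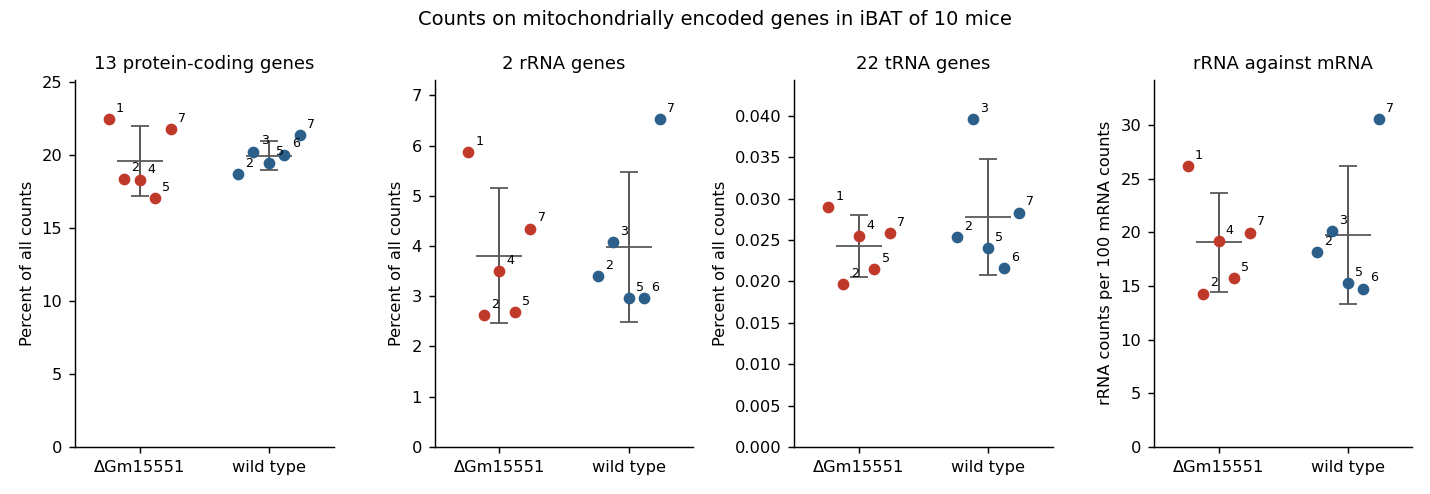
Share of all counts on the 13 protein-coding, 2 rRNA and 22 tRNA genes of the mitochondrial genome (percent of all counts) and rRNA counts per 100 mRNA counts, with 1 point per mouse labelled by its replicate number and the mean with its SD as a bar. The groups overlap in each panel, and ΔGm15551 replicate 1 and wild type replicate 7 have the most rRNA per mRNA (26.2 and 30.6 per 100).

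The balance of rRNA to mRNA was set apart in the same pair of mice. There were 26.2, 14.3, 19.2, 15.8 and 20 rRNA counts per 100 mRNA counts in the ΔGm15551 mice and 18.2, 20.1, 15.2, 14.8 and 30.6 in the wild type mice. ΔGm15551 replicate 1 and wild type replicate 7 lay above the other 8, which ranged from 14.3 to 20.1. Both were among the 3 libraries richest in muscle genes and had the most red blood cell counts, while the third muscle-rich library, ΔGm15551 replicate 4, had 19.2. The part of these cell types in the rRNA balance was not tested.

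The levels of the mRNAs were compared per length, as CPM per kb of gene, with the mean and SD over all 10 mice. The full length of each record was used, with no correction for the length of the sequenced fragments. Complex IV, cytochrome c oxidase, passes electrons to oxygen, and its 3 core subunits stand near the top. mt-Co2 (MT, 7013 to 7696), which holds the copper site that receives electrons from cytochrome c, was the most abundant at 38588 ± 5807 CPM per kb. mt-Co1 (5328 to 6872), the subunit in which oxygen is reduced, was at 26847 ± 3413. mt-Co3 (8607 to 9390) was at 23731 ± 3458.

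Complex V, the ATP synthase, has a pair of mitochondrial genes that share bases. mt-Atp6 (7927 to 8607), a part of the proton channel, was at 33736 ± 4654 CPM per kb, next below mt-Co2 and lower than it in 10 of 10 mice. mt-Atp8 (7766 to 7969), a small stalk subunit, was at 3862 ± 905. Both lie on 1 mRNA, in which the last 43 bases of mt-Atp8 are the first 43 of mt-Atp6 (7927 to 7969). The level of mt-Atp6 per kb was 9.10 ± 2.19 times that of mt-Atp8 (SD, n = 10), although both records lie on the same mRNA. The records are 681 and 204 bases long, and the part of record length in this ratio was not tested. The stretch is printed from the plus strand of GRCm38 (MT, 7907 to 7989) because it is where the gene records overlap, and the capitals mark the bases that belong to both genes.
mt-Atp8/mt-Atp6: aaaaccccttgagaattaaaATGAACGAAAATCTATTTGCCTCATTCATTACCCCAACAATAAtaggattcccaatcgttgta

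Complex III is represented by mt-Cytb alone (14145 to 15288), the cytochrome b that passes electrons from ubiquinol, at 17886 ± 1720.3 CPM per kb. It varied the least between mice of all 13, with a coefficient of variation of 9.62% in CPM. Over the 13 mRNAs this coefficient reached 35.6% (mt-Nd3), or 25.6% for mt-Nd3 with the counts of its nuclear copy, described below, added. Of the 13, 6 lay above 16.6%, the median of the 229 genes tested whose mean CPM was 500 or more.

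Complex I, which takes electrons from NADH, has 7 mitochondrial subunits. mt-Nd1 (2751 to 3707), which lies next to the ubiquinone site, was at 23794 ± 3576 CPM per kb, close to mt-Co3, which it exceeded in 6 of 10 mice. The proton-pumping subunits mt-Nd2 (3914 to 4951), mt-Nd4 (10167 to 11544) and mt-Nd5 (11742 to 13565) were at 14096 ± 2744, 11706 ± 1534 and 5313 ± 948. mt-Nd6 (13552 to 14070), the only mRNA encoded on the opposite strand, was at 5246 ± 1174. mt-Nd4l (9877 to 10173) was at 4655 ± 1006 and mt-Nd3 (9459 to 9806) at 1888 ± 673, the lowest of the 13.

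The order from high to low was therefore mt-Co2, mt-Atp6, mt-Co1, mt-Nd1, mt-Co3, mt-Cytb, mt-Nd2, mt-Nd4, mt-Nd5, mt-Nd6, mt-Nd4l, mt-Atp8 and mt-Nd3. The lowest of these, mt-Nd6, mt-Nd4l, mt-Atp8 and mt-Nd3, are also the shortest records (519, 297, 204 and 348 bases). The part of record length in this order was not tested. For 11 of the 12 neighbouring pairs in this order the ranges over the 10 mice overlapped. The exception was the step from mt-Nd4 (at least 9077 CPM per kb) to mt-Nd5 (at most 6848). mt-Nd5 and mt-Nd6 overlap by 14 bases on opposite strands, and it is not stated whether reads were counted by strand, so that their split is uncertain. mt-Nd6 is also known for carrying little or no poly(A) tail.

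mt-Nd4l and mt-Nd4 share 1 mRNA as well, with 7 bases in common (10167 to 10173), shown in capitals on the plus strand (MT, 10147 to 10193). The level of mt-Nd4 per kb was 2.58 ± 0.471 times that of mt-Nd4l (SD, n = 10). These records are 1378 and 297 bases long, and the part of record length was again not tested.
mt-Nd4l/mt-Nd4: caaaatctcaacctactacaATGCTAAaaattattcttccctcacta

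In 3 of the 13 mRNAs, mt-Co3, mt-Nd4 and mt-Cytb, the gene ends on a lone T, and the poly(A) tail added after cleavage completes the stop codon. Their last 25 bases are printed with that T in capitals, since these RNAs need a tail to have a stop codon and poly A RNA was selected.
mt-Co3 end: gtctccatttattgatgaggatctT
mt-Nd4 end: aaactaattacaggcctgacaataT
mt-Cytb end: gacaaaatactaaaattatatccaT
The other 10 genes end in a complete stop codon.

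**Figure D2:**
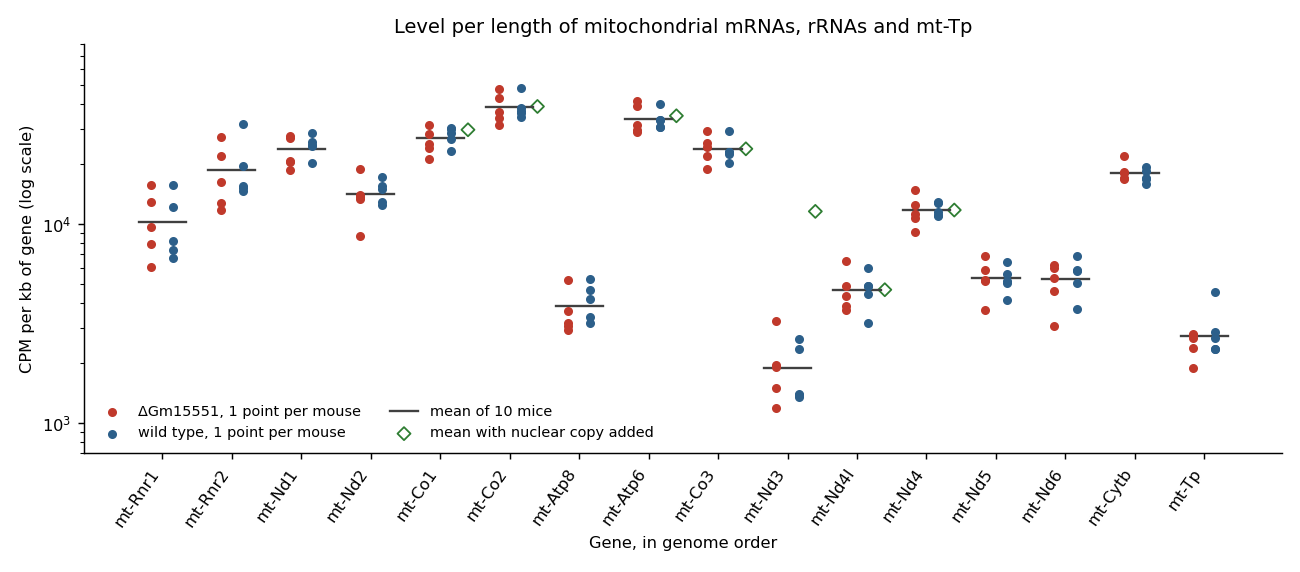
Level of the 13 mRNAs, 2 rRNAs and mt-Tp in CPM per kb of gene (log axis), in genome order, with 1 point per mouse, the mean of the 10 mice as a line, and the mean with the counts of the nuclear copy added as an open diamond for the 7 genes that have one. mt-Co2 has the highest mean, mt-Nd3 the lowest of the mRNAs, and mt-Nd3 is the gene that the copy moves most, from 1888 to 11526.

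The lowest rank of mt-Nd3 held only without the counts on the record of a nuclear pseudogene, Gm28438. On chromosome 1 of GRCm38, between 24611535 and 24616197 on the minus strand (4663 bases), 7 annotated pseudogenes repeat the mitochondrial sequence from mt-Co1 to mt-Nd4. They were found by their sequence, as records with more than 50% of their 31-base words in the 37 mitochondrial genes. In all, 23 records shared words with these genes. Gm13341 (48.0%, closest to mt-Co2) and Gm13340 (45.2%, closest to mt-Co1) lay just below the cutoff and were not added to a gene. Of the 7, 5 hold no difference from the mitochondrial gene over their whole length: Gm28439 (mt-Nd4), Gm10222 (mt-Nd4l), Gm28437 (mt-Co3), Gm10925 (mt-Atp6) and Gm28661 (mt-Co2). Gm28438 differs from mt-Nd3 by T3C alone, the base of the mitochondrial gene being given first and positions being counted from 1 at its first base. The first 60 bases of both are printed 5′ to 3′, with the differing base in capitals, since that base is the only one by which reads from within the copy could be told apart.
mt-Nd3: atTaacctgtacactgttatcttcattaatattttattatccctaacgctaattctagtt
Gm28438: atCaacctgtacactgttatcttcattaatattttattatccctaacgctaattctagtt
These are MT, 9459 to 9518 on the plus strand, and chromosome 1, 24613060 to 24613119 on the minus strand. Of the 318 words of 31 bases in mt-Nd3, 6 occur in no other annotated transcript.

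Gm28438 had the larger count in every mouse. mt-Nd3 had 15427, 7322, 8941, 5397 and 9075 counts in the ΔGm15551 mice and 9068, 5648, 6702, 7182 and 8939 in the wild type mice. Gm28438 had 62383, 37675, 38509, 27875 and 51597 and 32550, 50675, 35312, 51264 and 42069. The copy thus held 78.2% to 90.0% of the counts of the pair, and adding it to mt-Nd3 raised the mean of mt-Nd3 by 6.11-fold, from 657 to 4011 CPM. Per kb, mt-Nd3 then rose from rank 13 to rank 9 of the 13 mRNAs, to 11526 ± 2947 CPM per kb, close to mt-Nd4. Which base these mice carry at this position was not examined, as the values are counts per gene. Whether the counts on Gm28438 came from the nuclear or the mitochondrial genome therefore cannot be told.

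Gm29216 (chromosome 1, 24615706 to 24616197, minus strand) covers bases 1054 to 1545 of mt-Co1. It differs by T1056A, C1057T, A1059G, A1060G, C1062A and A1066T, all within its first 13 bases, which are shown in capitals against mt-Co1 (MT, 6381 to 6440, plus strand).
mt-Co1: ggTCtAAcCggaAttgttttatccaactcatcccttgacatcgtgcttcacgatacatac
Gm29216: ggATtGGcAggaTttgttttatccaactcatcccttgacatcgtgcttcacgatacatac
It held 14, 5.83, 7.62, 14.3 and 4.84% of the counts of the pair in the ΔGm15551 mice and 7.15, 7.03, 8.97, 7.08 and 17.1% in the wild type mice. The share exceeded 10% in 3 mice, ΔGm15551 replicates 1 and 5 and wild type replicate 7. With the copy added, mt-Co1 went from 41479 to 45795 CPM.

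Where copy and gene do not differ, the split of the counts varied between mice. Gm28661, identical to mt-Co2 over its length, had 0, 0, 0, 253 and 0 counts in the ΔGm15551 mice and 0, 17868, 0, 135 and 0 in the wild type mice, so that 17868 of its 18256 counts were in wild type replicate 3. The same mouse had 3542 of the 4268 counts on Gm28437, the copy of mt-Co3. Gm10925, the copy of mt-Atp6, was at 331, 569, 384, 921 and 587 CPM in the ΔGm15551 mice and at 619, 1694, 787, 903 and 765 CPM in the wild type mice, again highest in wild type replicate 3. Gm28439 and Gm10222 had 6 counts each in all 10 mice together. In wild type replicate 3 the copies held 6.95% of the counts of the pair for mt-Atp6, 5.51% for mt-Co2 and 1.66% for mt-Co3, the largest shares of these copies in any mouse.

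**Figure D3:**
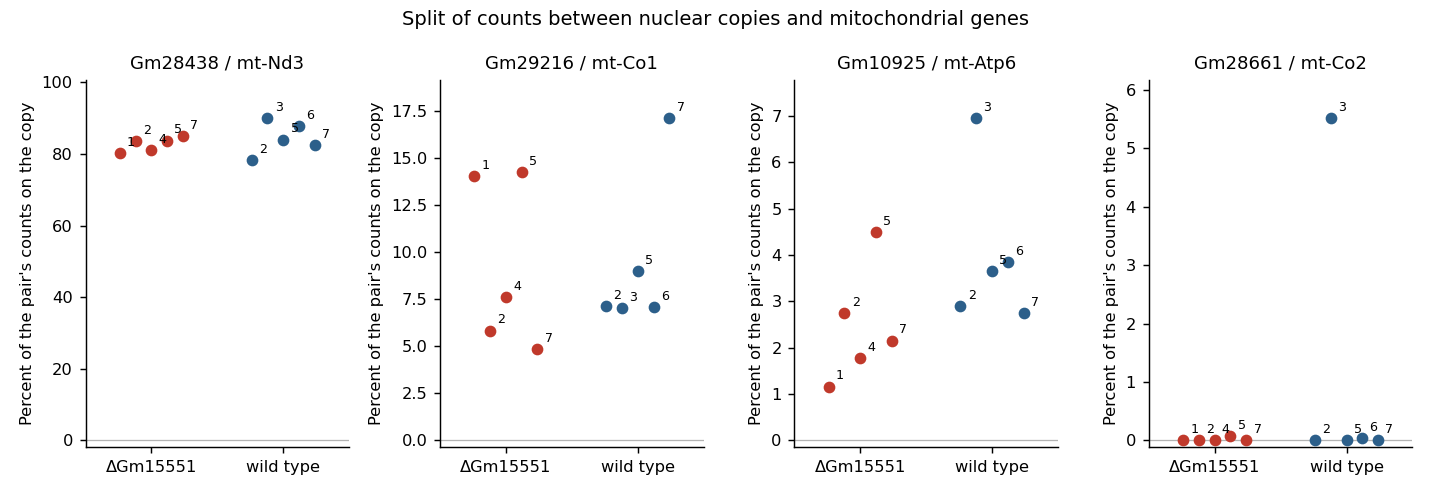
Percent of the counts of each pair of nuclear copy and mitochondrial gene that fell on the copy, with 1 point per mouse labelled by its replicate number. Gm28438 holds 78.2% to 90.0% of its pair with mt-Nd3, Gm29216 4.84% to 17.1%, Gm10925 1.16% to 6.95%, and Gm28661 has at most 0.0779% outside wild type replicate 3 (5.51%).

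The rRNA genes encode the RNAs of the mitochondrial ribosome, mt-Rnr1 (MT, 70 to 1024) that of the small and mt-Rnr2 (1094 to 2675) that of the large subunit. mt-Rnr1 was at 14896, 5785, 9195, 7554 and 12336 CPM in the ΔGm15551 mice and at 7816, 11534, 7061, 6382 and 14859 CPM in the wild type mice. mt-Rnr2 was at 42982, 20190.5, 25509.5, 18442 and 34478 CPM and at 24490.3, 30829, 23020.2, 23972 and 50047 CPM. Both were highest in ΔGm15551 replicate 1 and wild type replicate 7, and their coefficients of variation over the 10 mice were 35.2% and 35.0%, larger than for 12 of the 13 mRNAs. There were 2.44 to 3.76 counts of mt-Rnr2 per count of mt-Rnr1. The poly(A) tails of these rRNAs are short, so that their level here is that of the RNA retained by poly A selection, and how evenly it was retained between libraries was not tested.

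Among the 22 tRNA genes, mt-Tp (tRNA-Pro, MT, 15356 to 15422, minus strand) stood far above the rest. It held 23308 of the 33486 counts on tRNA genes, 64.6% to 77.1% of them in every mouse. Its level was 187, 125, 179, 159.7 and 184 CPM in the ΔGm15551 mice and 157, 302, 179, 156 and 192 CPM in the wild type mice. Wild type replicate 3 had the highest value and the other 9 mice overlapped. The gene is printed whole, 5′ to 3′ on the minus strand, as the tRNA record with the most counts.
mt-Tp: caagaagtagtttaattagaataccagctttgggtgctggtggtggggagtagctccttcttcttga

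Next came mt-Tt (tRNA-Thr), its neighbour on the plus strand (15289 to 15355), with 2785 counts, mt-Ts1 (tRNA-Ser) with 1338, mt-Te (tRNA-Glu) with 1190 and mt-Th (tRNA-His) with 947, summed over the 10 mice. The 8 tRNA genes of the minus strand held 79.0% to 85.6% of the tRNA counts per mouse and the 14 of the plus strand the remainder. Reads of longer RNAs that run across a tRNA gene can fall on it, and without the strand such RNAs cannot be told from the tRNA. Another 11 tRNA genes passed the filter on low counts, mt-Tf, mt-Tl1, mt-Ti, mt-Tq, mt-Tm, mt-Ta, mt-Tn, mt-Tc, mt-Ty, mt-Ts2 and mt-Tl2, with 112 to 622 counts each over the 10 mice. The 6 that did not pass were mt-Tg with 94 counts, mt-Tw with 24, mt-Tr with 20, mt-Tk with 19, mt-Tv with 16 and mt-Td with 6. mt-Td was at 0 in 5 mice, and a count of 0 allows up to 3 counts, which is 0.195 to 0.308 CPM in these libraries.

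Whether loss of Gm15551 altered the RNAs of the mitochondrial genome was asked gene by gene. Of the 37 genes, 31 passed the filter on low counts in either group: all 13 mRNAs, both rRNAs and 16 tRNAs. Across the 13732 genes tested (Benjamini-Hochberg adjustment over all of them), 0 of the 31 passed the threshold of 0.05 in the quasi-likelihood test of edgeR between ΔGm15551 and wild type, and 0 did so in the Wald test of DESeq2 or in limma-voom. At an unadjusted p under 0.05 there were also 0 of 31 with each of the 3 tools. In the background of all genes tested, 0% were called at the adjusted threshold and 1.59% had an unadjusted p under 0.05, 0.961% higher and 0.634% lower in ΔGm15551. The values of the groups overlapped in all 31 genes, while over all genes tested 0.32% did not overlap, 0.226% with every ΔGm15551 mouse above and 0.0947% with every ΔGm15551 mouse below every wild type mouse. With so small a background, 0 of 31 is no result particular to the mitochondrial genes.

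The intervals bound how large a difference could have been missed. For all 15 mRNAs and rRNAs the 95% interval of the log2 fold change (log2FC, ΔGm15551 over wild type) lay within a 2-fold change in either direction, and for 10 of the 15 it lay within 0.5 on the log2 scale. The median log2FC of the 13 mRNAs was -0.01, with 5 above and 8 below 0, beside a median of -0.00087 over all genes tested.

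In complex IV, mt-Co1 was at 40204 ± 6176 CPM in ΔGm15551, against 42755 ± 4510.3 CPM in the wild type mice (SD, n = 5 each), a log2FC of -0.09 (95% interval -0.40 to 0.23). mt-Co2 was at 26333 ± 4606 and 26456 ± 3778 CPM, a log2FC of -0.01 (-0.34 to 0.33). mt-Co3 was at 18757 ± 3030.2 and 18453 ± 2701 CPM, a log2FC of 0.02 (-0.31 to 0.35). All 3 differences were smaller than the spread between mice. mt-Cytb of complex III had the narrowest interval, with 20974 ± 2358 and 19949 ± 1580.3 CPM and a log2FC of 0.07 (-0.20 to 0.35).

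In complex V, mt-Atp6 was at 23174 ± 3983 and 22775 ± 2576 CPM, a log2FC of 0.03 (-0.30 to 0.35). mt-Atp8 had the estimate farthest from 0 of the 13 mRNAs, -0.20 (-0.61 to 0.21). Its values were 645, 623, 739, 597 and 1067 CPM in the ΔGm15551 mice and 1074, 949, 645, 851 and 689 CPM in the wild type mice. ΔGm15551 replicate 7 was second only to wild type replicate 2, and the groups overlapped. Its log2FC was -0.37 without the former and -0.095 without the latter mouse.

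In complex I the log2FC was -0.12 for mt-Nd1 (-0.46 to 0.21), -0.09 for mt-Nd2 (-0.49 to 0.31), -0.02 for mt-Nd4 (-0.33 to 0.30), -0.01 for mt-Nd4l (-0.41 to 0.40), 0.02 for mt-Nd5 (-0.35 to 0.40) and -0.12 for mt-Nd6 (-0.56 to 0.32). mt-Nd3 had a log2FC of 0.11 (-0.48 to 0.70), the widest interval of the mRNAs. With the counts of Gm28438 added it was -0.08 (-0.55 to 0.39), so that its sign, but no call, depended on the copy. Adding the copies moved the log2FC of the other 6 genes with a copy by at most 0.025.

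The interval of mt-Rnr1 was wider than those of all 13 mRNAs, and that of mt-Rnr2 was about as wide as that of mt-Nd3. mt-Rnr1 was at 9953 ± 3668 and 9530.5 ± 3583 CPM, a log2FC of 0.06 (-0.55 to 0.67), and mt-Rnr2 at 28320.5 ± 10301 and 30472 ± 11368 CPM, a log2FC of -0.11 (-0.69 to 0.48). With a score of the muscle genes as a covariate, these were 0.07 and -0.09. Of the 16 tRNAs tested, 7 had a log2FC above and 9 below 0, from -0.38 for mt-Tq (tRNA-Gln) to 0.58 for mt-Ty (tRNA-Tyr), and 12 of the 16 intervals lay within a 2-fold change. mt-Tq had the smallest unadjusted p of all 31 genes, 0.125, with an adjusted p of 0.9998 (edgeR). mt-Tp had a log2FC of -0.24 (-0.64 to 0.16), which moved to -0.034 when wild type replicate 3 was left out and to -0.15 when ΔGm15551 replicate 2 was.

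Of the nuclear copies, 4 passed the filter. Gm10925 had a log2FC of -0.77 (-1.43 to -0.11), with an unadjusted p of 0.0259 and, after adjustment over all genes, an adjusted p of 0.9998 (edgeR), and so was not called. It was -0.46 without wild type replicate 3, and in the 6 mice with shared replicate numbers -0.064 without and -0.092 with the replicate block. mt-Atp6, with which it shares all its bases, had a log2FC of 0.03 without and of 0.00015 with its counts. Gm28438 and Gm29216 had log2FCs of -0.11 and -0.14. Gm28437 was at 0 counts in 5 of the 10 mice and had a log2FC of -3.75 (-8.47 to 0.97), which rested on wild type replicate 3 and was -0.47 without it.

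**Figure D4:**
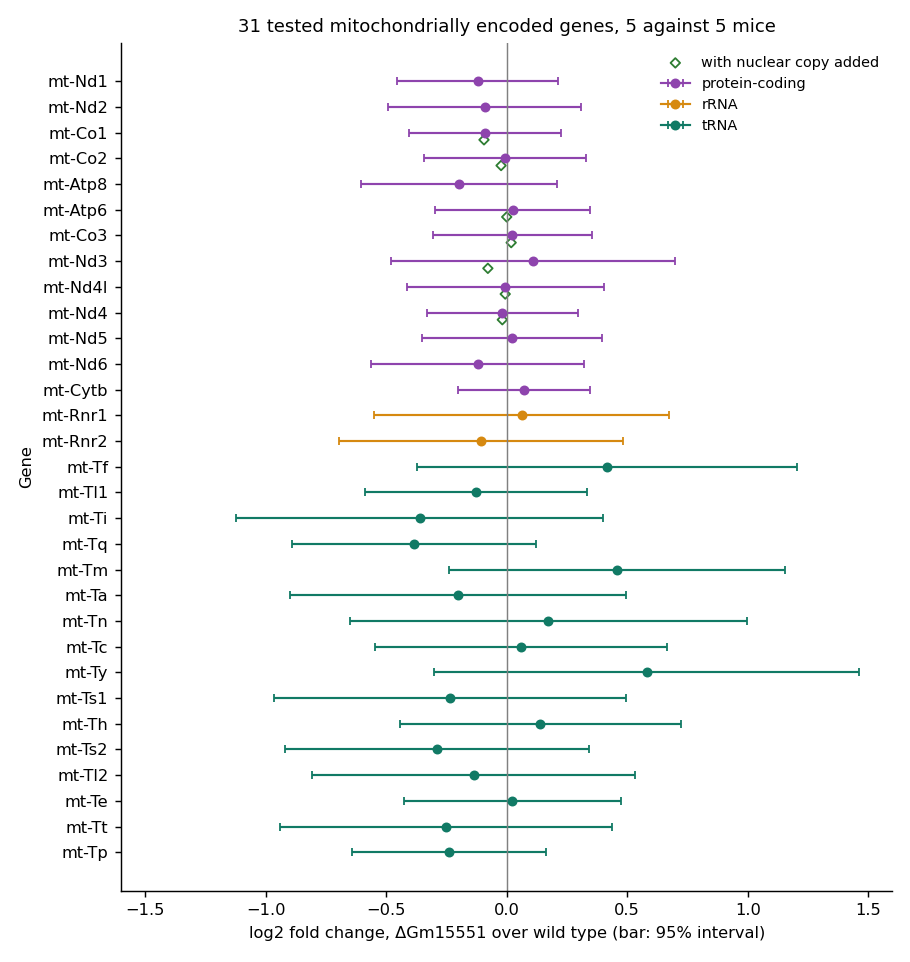
log2FC of ΔGm15551 over wild type (5 mice each) for the 31 tested mitochondrial genes, with the 95% interval as a bar and, for the 7 genes with a nuclear copy, the value with the copy's counts added as an open diamond. Every interval includes 0, and those of all 15 mRNAs and rRNAs lie between -1 and 1.

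The widest differences lay between single mice. ΔGm15551 replicate 7 was above the mean of the 10 mice (on the log2 scale) for 13 of 13 mRNAs and had the highest CPM for 6 of them. ΔGm15551 replicate 5 was above it for 1 and had the lowest CPM for 9 of 13. Averaged over the 13 mRNAs, replicate 7 lay at 0.29 and replicate 5 at -0.35 from that mean on the log2 scale, and the wild type mice lay between -0.08 and 0.13.

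The makeup of the mitochondrial mRNA also differed between mice, when each gene was taken as a percent of the counts on the 13. mt-Nd2 was at 5.48% in ΔGm15551 replicate 5, 6.06% in wild type replicate 7 and 6.41% in ΔGm15551 replicate 1, against 7.47% to 8.43% in the other 7 mice. mt-Nd5 was at 4.08%, 3.55% and 4.23% in the same mice, against 4.78% to 5.91%. mt-Co3 was at 11.6%, 10.8% and 10.3%, against 8.12% to 9.47%, and mt-Co2 at 15.1%, 15.5% and 14.8%, against 11.9% to 13.2%. The third complex IV mRNA went the other way, with mt-Co1 at 19.7%, 19.3% and 19.8%, against 20.1% to 23.8%. mt-Atp6 was at 11.9%, 12.8% and 12.7%, against 10.5% to 11.7%, and mt-Nd4l at 0.659%, 0.443% and 0.52%, against 0.704% to 0.841%. These 3 mice, from both genotypes, thus had the lowest shares of mt-Nd2, mt-Nd5 and mt-Nd4l and the highest of mt-Co2, mt-Co3 and mt-Atp6. Their shares of mt-Co1 were the lowest only without the copies, and the 3 mice were noticed after the values were seen. ΔGm15551 replicate 1 and wild type replicate 7 were among the 3 libraries richest in muscle genes, whereas ΔGm15551 replicate 5 was not, and the 3 mice had the 3 highest CPM values for 4 of 5 red blood cell genes. The part of these cell types in the makeup was not tested. The split did not follow the complexes, as mt-Nd1 of complex I was at 10.8%, 12.9% and 12.0%, within or above the 10.7% to 12.1% of the other mice. Summed by complex, complex I took 29.8% to 36.3% of the mRNA counts per mouse, complex III 9.0% to 11.6%, complex IV 41.4% to 46.4% and complex V 10.9% to 13.1%, with overlapping groups.

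**Figure D5:**
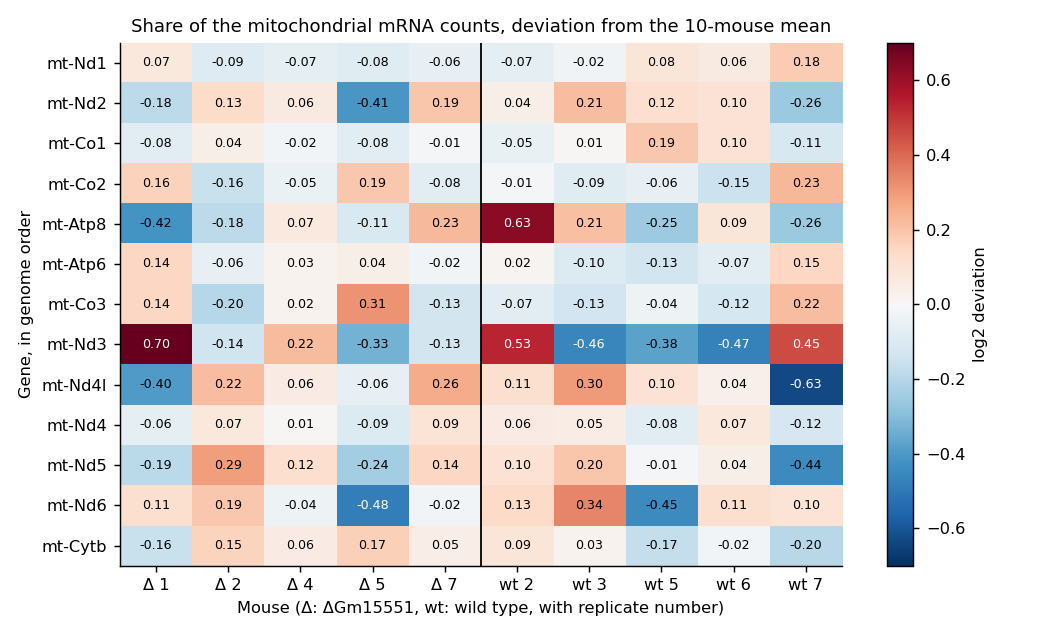
Share of each of the 13 mRNAs in the mitochondrial mRNA counts of a mouse, as its log2 deviation from the mean of the 10 mice (rows in genome order, columns by mouse, red for higher and blue for lower). Counts of the nuclear copies are not included. ΔGm15551 replicates 1 and 5 and wild type replicate 7 are low in mt-Nd2, mt-Nd5, mt-Nd4l and mt-Co1 and high in mt-Co2, mt-Co3 and mt-Atp6. With the copies added, they are not the lowest in mt-Co1. mt-Nd3 has the widest spread, from -0.47 to 0.70, but not once its copy Gm28438 is added.

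Each of these complexes is also built from nuclear genes, whose RNAs were read beside the mitochondrial ones. For complex I there were 5.78, 6.41, 6.11, 3.83 and 7.52 counts on the 7 mitochondrial genes per count on its 37 nuclear subunit genes in the ΔGm15551 mice, and 5.39, 7.7, 6.14, 7.1 and 5.41 in the wild type mice. For complex IV there were 8.82, 10.2, 9.85, 6.82 and 11.3 and 8.19, 11.4, 10.5, 11.3 and 8.63 on 3 mitochondrial genes per count on 15 nuclear ones. The ratio was lowest in ΔGm15551 replicate 5 for complexes I, III (2.68), IV and V (1.67), and its highest value was in wild type replicate 3 for complexes I, III (4.02) and IV and in ΔGm15551 replicate 1 for complex V (2.65). The groups overlapped for all 4 complexes. As these are ratios of counts, they carry the lengths of the genes and are compared between mice only.

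No nuclear subunit gene passed the test between the genotypes: 0 of 37 for complex I, 0 of 9 for complex III, 0 of 14 for complex IV and 0 of 15 for complex V were called in edgeR's test, and 0 had an unadjusted p under 0.05. Their median log2FCs were 0.02, 0.04, 0.07 and 0.01.

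The machinery that copies and reads the mitochondrial genome is nuclear as well. Of 18 genes for mitochondrial DNA replication and transcription, 0 were called and 0 had an unadjusted p under 0.05 (edgeR), with a median log2FC of -0.03. Tfam, which packages the genome and starts transcription, had a mean of 51.1 ± 8.31 CPM in ΔGm15551, against 53.6 ± 8.87 CPM in wild type, a log2FC of -0.07. The log2FC was 0.10 for Polrmt, the RNA polymerase, -0.07 for Tfb2m, its initiation factor, -0.08 for Tefm, its elongation factor, 0.04 for Twnk, the helicase, and 0.02 for Polg, the DNA polymerase.

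Of 21 genes for mitochondrial RNA processing and stability, 0 were called and 0 had an unadjusted p under 0.05, with a median log2FC of -0.04. Lrpprc, which binds and stabilises the mitochondrial mRNAs, was at 67.2, 153, 116, 87.9 and 125 CPM in the ΔGm15551 mice and 104, 134, 124, 133 and 55.5 CPM in the wild type mice. Its log2FC was -0.00, and the lowest values were in wild type replicate 7 and ΔGm15551 replicate 1. The log2FC was 0.03 for its partner Slirp, -0.10 for Mtpap, the poly(A) polymerase, -0.11 for Pnpt1, an exonuclease whose coefficient of variation over the 10 mice (29.3%) was close to that of Lrpprc (28.4%), 0.02 for Elac2 and -0.18 for Trmt10c, which take part in cutting the tRNAs out of the precursors.

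Of 12 mitochondrial translation factors and 10 regulators of mitochondrial biogenesis, 0 were called and 0 had an unadjusted p under 0.05, with median log2FCs of -0.05 and -0.03. The log2FC was -0.07 for Ppargc1a, the coactivator that drives mitochondrial biogenesis, 0.03 for Nrf1 and -0.24 for Gabpa, factors that bind promoters of nuclear respiratory genes. Among all listed genes only Adrb3, the adrenergic receptor of the brown adipocyte list, had an unadjusted p under 0.05, at a log2FC of 0.50, and its adjusted p was 0.9998 (edgeR).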

How the data were processed

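Poly A RNA of iBAT from 10 mice was sequenced by the study in paired-end reads. Per the labels and the published methods, reads were trimmed with cutadapt and quantified with Salmon on GRCm38 transcripts (GENCODE M22, or M22 with RNAcentral), and tool versions are not given in the sources used here. The values deposited by the authors were estimated counts per gene, rounded to whole numbers and not scaled to depth, with 1 column for each mouse. Salmon divides reads that match several transcripts among them by an estimate, so counts of mitochondrial genes and their nuclear copies are uncertain, as are overlapping genes. The strand setting is not stated.

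The counts were fitted with edgeR 4.0.16 under R 4.3.3 (filterByExpr with minimum count 10 and minimum total 15, TMM, robust quasi-likelihood fit with genotype as the only term), with Benjamini-Hochberg adjustment and a threshold of 0.05. Intervals of 95% came from the F statistic. Library totals ranged from 9680976 to 15771170, which limits the precision of the tRNAs most. Shares and ratios are given per mouse without a test. Annotation and sequences came from GENCODE M21, the same build. Copies were records with over 50% of their 31-base words in the 37 mitochondrial transcripts, on either strand. As no mitochondrial genome sequence was used, the control region is not analysed here. Which mice shared a litter is not stated, so p-values measure the spread between these animals.

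Replicate numbers shared by both groups (2, 5 and 7) were not taken as pairs, and the labels do not say what they stand for. No libraries were duplicates (smallest chi-square 12.7 per degree of freedom). Named were all mRNAs, rRNAs and tested tRNAs, the copies with a mean of at least 1 CPM (the other copies were named for their sequence), 15 nuclear genes for mitochondrial expression, listed genes with an unadjusted p under 0.05, Ucp1 and Gm15551. The members and lists were chosen with earlier results of these data known. Of the listed symbols, 1110008L16Rik and Atp5f1 were not matched. Alternatives were DESeq2 1.42.0 (its size factors and its Wald test), limma-voom (limma 3.58.1), library totals, scaling without mitochondrial genes or to the mitochondrial mRNAs, no filter, a muscle score covariate, copies added to their genes, other denominators, and leaving out mice.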

Additional observations from a re-analysis of the deposited data

Results flagged for a closer look

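Values lying far from the other mice of their genotype were searched in 90 groups of 5 mice (Dixon's ratio), which covered the 31 tested mitochondrial genes, 5 nuclear copies and 9 shares or ratios in each genotype. With independent, normally distributed values about 1 in 20 groups, or 4.5, would be set apart, and 9 were found. The groups share counts and some hold mostly 0, so that 4.5 is no expectation for these data. Wild type replicate 3 had 4 of them: mt-Tp at 302.1 CPM against 156 to 192 in the other wild type mice, and the nuclear copies Gm28661 at 1530.4 CPM against 0 to 8.79, Gm28437 at 303 CPM against 0 to 18.9 and Gm10925 at 1694 CPM against 619 to 903. Gm28661 was also at 19.4 CPM in ΔGm15551 replicate 5 and at 0 in the other ΔGm15551 mice. In wild type replicate 7, mt-Rnr2 was at 50047 CPM against 23020.2 to 30829. In ΔGm15551 replicate 1, mt-Ts1 was at 19.4 CPM against 5.45 to 8.73, and there were 34.2 counts of mt-Nd6 per 100 of mt-Nd5 against 23.5 to 25.9. In ΔGm15551 replicate 7, mt-Ts2 was at 4.33 CPM against 2.42 to 2.84, a difference of few counts.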

How the results depend on the processing

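In all 22 alternative fits, 0 mitochondrial genes, 0 listed nuclear genes and 0 genes in all were called at the adjusted threshold. The smallest adjusted p over all genes was 0.0615, in the Wald test of DESeq2. At an unadjusted p under 0.05 at most 2 mitochondrial genes appeared in any fit, mt-Ts1 and mt-Tt in the 6 mice with the replicate block. Over all genes this count was 219, and it moved to 119 with scaling to the mitochondrial mRNAs, 869 without the filter, 419 without ΔGm15551 replicate 1, 404 without wild type replicate 7, 552 in the 6 mice with shared numbers and 397 in these with the replicate block. Same-numbered mice had correlations of -0.07 (number 2), 0.05 (number 5) and -0.39 (number 7), so the numbers were not taken as pairs. So few correlations cannot exclude a pairing.

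The median log2FC of the 13 mRNAs stayed between -0.12 and 0.03, and the difference in the share of the 37 genes (ΔGm15551 minus wild type) between -1.86 and 0.43 percentage points, around -0.55 with all mice, within the spread between mice (3.08). For 16 genes (mRNAs, rRNAs and mt-Tp) 352 values were computed, of which 58 had the other sign, none past the threshold. Outside the fits that leave out 1 mouse, these were 0.025 for mt-Nd1, 0.010 for mt-Co1, 0.087 for mt-Co2, -0.096 for mt-Nd5 and 0.037 for mt-Rnr2 (and 0.43 for the copy Gm29216) without the 3 wild type mice whose mouse numbers lie above those of the rest. In the 6 mice without a block they were 0.041 for mt-Nd2, -0.047 for mt-Atp6, -0.076 for mt-Co3, -0.45 for mt-Nd3, 0.26 for mt-Nd4l, 0.069 for mt-Nd4 and -0.21 for mt-Rnr1. With the replicate block they were -0.051 for mt-Atp6, -0.071 for mt-Co3, -0.43 for mt-Nd3, 0.25 for mt-Nd4l, 0.041 for mt-Nd4 and -0.20 for mt-Rnr1. Scaling to the mitochondrial mRNAs gave 0.027 for mt-Co2, 0.019 for mt-Nd4l and 0.0067 for mt-Nd4. No filter gave 3.2e-05 for mt-Co2, the muscle score 0.0048 for mt-Nd4l and the added copy -0.078 for mt-Nd3.

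Leaving out 1 mouse at a time, values ranged from -0.23 to 0.031 for mt-Nd2, -0.096 to 0.084 for mt-Co2, -0.055 to 0.094 for mt-Atp6, -0.057 to 0.11 for mt-Co3, -0.15 to 0.28 for mt-Nd3, -0.16 to 0.098 for mt-Nd4l, -0.12 to 0.056 for mt-Nd4, -0.083 to 0.13 for mt-Nd5, -0.23 to 0.012 for mt-Nd6, -0.13 to 0.28 for mt-Rnr1, -0.31 to 0.15 for mt-Rnr2 and -0.44 to 0.20 for Gm29216. The cause of these changes of sign was not tested. Without a change of sign, mt-Cytb ranged from 0.00038 (without ΔGm15551 replicate 7) to 0.11, mt-Co1 from -0.17 to -0.024, mt-Nd1 from -0.20 to -0.058, mt-Atp8 from -0.37 to -0.095, mt-Tp from -0.32 to -0.034 and Gm28438 from -0.28 (without ΔGm15551 replicate 1) to -0.00083 (without ΔGm15551 replicate 5). Depth limits the tRNAs: 4 of the 16 tested have intervals that reach beyond a 2-fold change, and 6 of the 22 could not be tested.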

Other observations

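The 3 mice that stood apart in the makeup of the mitochondrial mRNAs, ΔGm15551 replicates 1 and 5 and wild type replicate 7, also lay at the ends of some nuclear lists and not of others. They were chosen after their values were seen, so the counts below are a description without a test. Over all 13732 genes tested, these mice had the 3 lowest CPM values for 10.8% and the 3 highest for 9.63%. They had the 3 lowest values for 10 of 21 genes of mitochondrial RNA processing and stability, for 7 of 18 genes of mitochondrial DNA replication and transcription and for 4 of 12 translation factors, and the 3 highest for 0 of these 51. Of 10 regulators of mitochondrial biogenesis they had the 3 lowest values for 2, of 10 brown adipocyte genes the 3 lowest for 3 and the 3 highest for 2, and of 10 skeletal muscle and 5 macrophage genes neither for any. Pnpt1 was at 17.8, 18.9 and 13.5 CPM in ΔGm15551 replicates 1 and 5 and wild type replicate 7, against 28.6 to 39.1 CPM in the other 7 mice. Tfam was at 42.7, 41.7 and 39.9 CPM, against 52.7 to 64.6 CPM.

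For nuclear subunits of the respiratory chain, the same 3 mice had the 3 highest CPM values for 14 of 14 tested nuclear complex IV genes, 20 of 37 of complex I, 4 of 9 of complex III and 10 of 15 of complex V, and for 4 of 5 red blood cell genes. For the CPM of the 13 mitochondrial mRNAs they had the 3 highest values for 0 genes and the 3 lowest for 1.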
